A study of Mus musculus with 4 samples.

Results

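RNA levels of 10 germline genes known to be sensitive to DNA methylation were compared between mouse embryonic stem cells (ESCs) kept in serum medium and in 2i medium. The genes were Dppa3, Dazl, Mael, Asz1, Stk31, Tex19.1, Sycp3, Hormad1, Taf7l and Slc25a31. They were taken by name, and all 10 had a row among the 14533 genes of the deposited table.

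The serum ESCs grew in serum with the cytokine LIF. The 2i ESCs grew in serum-free medium with LIF and 2 kinase inhibitors, PD0325901 against MEK and CHIR99021 against GSK3, and the ESCs had been adapted over 20 days to their medium. The cells were sorted, and per the sample labels they were in late G1-phase, the stretch of the cycle that leads into DNA synthesis, whereas the description of the series gives early G1-phase. Each condition had 2 libraries from total RNA depleted of ribosomal RNA, and the labels name no cell line, genotype or sex for them.

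Germline genes serve the making of eggs and sperm, and most other cells keep them silent. Many have a promoter rich in CpG dinucleotides, the sites of DNA methylation in mammals, and are among the few CpG-rich promoters that are methylated in body cells. ESCs in 2i medium are known to carry far less DNA methylation than ESCs in serum. DNA methylation itself was not among the measurements used here.

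Promoters of the germline genes are shown first, because CpG sites near the start are where methylation is known to silence such genes. RefSeq's promoter table (build GRCm38.p6, which differs from the mm9 build of the expression values) held 9 of the 10 genes, and Dppa3 had no entry. The 250 bases before the transcription start held between 12 CpG dinucleotides in Sycp3 and 21 in Stk31, with a median of 18, against a median of 6 over all 27025 promoters in the table. Between 66.2% (Sycp3) and 83.9% (Stk31) of all promoters held fewer CpG than these genes did, so the germline promoters lay in the CpG-rich part of the range without being at its upper end. Tex19.2, the close relative and neighbor of Tex19.1, differed from the germline genes in this respect, with 2 CpG, fewer than any of the 9.

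Sequences of 5 of the germline genes and of Tex19.2 are given 5′ to 3′ on the strand of the gene, with each CpG in capitals. Dazl, Asz1, Tex19.1 and Taf7l are shown as genes with higher values in both 2i libraries that belong to different roles, Sycp3 for its letter matches described next, and Tex19.2 as the CpG-poor relative. Dazl lies at chr17:50293621-50293870 on the minus strand, Asz1 at chr6:18109062-18109311 on the minus strand, and Tex19.1 at chr11:121145893-121146142 on the plus strand. Sycp3 lies at chr10:88459337-88459586 on the plus strand, Taf7l at chrX:134476491-134476740 on the minus strand, and Tex19.2 at chr11:121118678-121118927 on the minus strand.
Dazl: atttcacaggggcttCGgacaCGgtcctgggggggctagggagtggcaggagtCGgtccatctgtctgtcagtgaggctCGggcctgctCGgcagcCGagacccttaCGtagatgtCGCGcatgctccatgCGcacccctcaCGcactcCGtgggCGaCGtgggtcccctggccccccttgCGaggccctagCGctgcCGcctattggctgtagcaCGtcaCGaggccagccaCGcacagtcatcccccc
Asz1: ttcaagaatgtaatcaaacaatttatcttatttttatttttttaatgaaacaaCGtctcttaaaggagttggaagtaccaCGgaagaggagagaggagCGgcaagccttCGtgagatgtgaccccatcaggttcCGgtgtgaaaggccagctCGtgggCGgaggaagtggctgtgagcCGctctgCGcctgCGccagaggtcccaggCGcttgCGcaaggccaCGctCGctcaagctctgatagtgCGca
Tex19.1: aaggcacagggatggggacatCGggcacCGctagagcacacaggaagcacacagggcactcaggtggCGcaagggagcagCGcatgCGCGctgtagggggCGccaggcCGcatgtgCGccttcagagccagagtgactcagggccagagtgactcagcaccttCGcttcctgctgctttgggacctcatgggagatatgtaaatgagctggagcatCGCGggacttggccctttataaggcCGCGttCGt
Sycp3: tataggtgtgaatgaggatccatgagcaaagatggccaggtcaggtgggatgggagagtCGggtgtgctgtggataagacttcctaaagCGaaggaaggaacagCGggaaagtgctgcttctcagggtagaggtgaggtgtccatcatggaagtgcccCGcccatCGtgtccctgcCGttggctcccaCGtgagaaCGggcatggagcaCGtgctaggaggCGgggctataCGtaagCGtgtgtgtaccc
Taf7l: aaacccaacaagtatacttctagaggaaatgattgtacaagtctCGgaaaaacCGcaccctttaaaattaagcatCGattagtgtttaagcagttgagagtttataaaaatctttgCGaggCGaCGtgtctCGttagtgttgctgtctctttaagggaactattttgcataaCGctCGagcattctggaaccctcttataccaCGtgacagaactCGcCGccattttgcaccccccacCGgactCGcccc
Tex19.2: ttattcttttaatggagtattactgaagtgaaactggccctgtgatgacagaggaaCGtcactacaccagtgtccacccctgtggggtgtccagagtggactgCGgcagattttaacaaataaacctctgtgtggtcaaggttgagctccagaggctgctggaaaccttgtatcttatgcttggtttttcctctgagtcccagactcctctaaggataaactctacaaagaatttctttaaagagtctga

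A pair of short strings of letters was counted on both strands, since factors that silence germline promoters are known to bind such letters. CACGTG is an E-box, to which Max and Mga can bind, and GCGGGA is a core that E2F factors such as E2f6 can bind. CACGTG was present in 6 of the 9 promoters, namely those of Mael, Sycp3, Stk31, Slc25a31, Hormad1 and Taf7l, against 6.05% of all promoters and 9.70% of the 5208 promoters that held between 12 and 21 CpG. In the Sycp3 sequence it can be read at caCGtg, and its first base lay 64 and 43 bases before the start. GCGGGA was present in 4 of the 9, those of Mael, Sycp3, Tex19.1 and Hormad1, against 16.9% of all promoters and 32.3% of those with between 12 and 21 CpG. Tex19.1 held it at 33 bases before the start, where its first letters belong to a run of CpG. Both strings occurred in 3 of the germline promoters, against 1.47% of all promoters, and no match of one overlapped a match of the other. The share with both was not counted among promoters with between 12 and 21 CpG, where each string alone was more frequent. Dazl, Asz1, Tex19.1 and Tex19.2 did not hold CACGTG, which says only that these letters are not in this window.

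**Figure D1:**
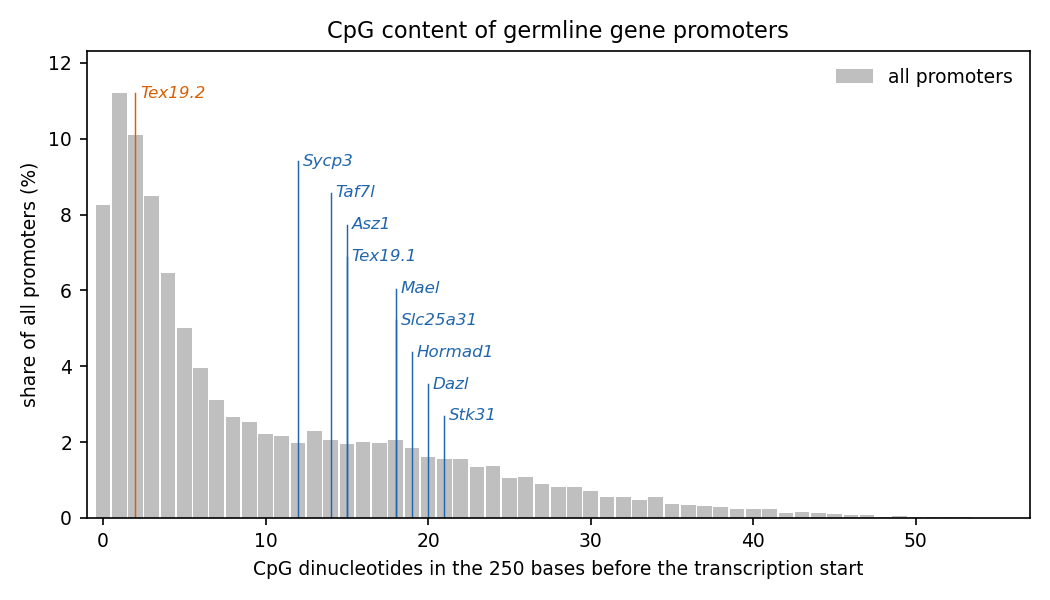
Number of CpG dinucleotides in the 250 bases before the transcription start (horizontal axis) against the share of all 27025 RefSeq promoters with that number (grey bars, %). Lines mark the 9 germline genes (blue), which lie between 12 and 21 CpG, and Tex19.2 (orange), at 2.

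The libraries held between 18939401 and 26570098 reads over the 14533 genes of the deposited table, which is not their full sequencing depth. Values are normalized counts, which are reads divided by a size factor for each library, so that 3 reads correspond to between 2.91 and 3.11 normalized counts. The libraries also differed in make-up, since protein-coding genes took between 46.9% and 76.3% of the reads and the 10 most abundant genes between 17.5% and 50.6%. All 8 marker genes of pluripotent cells were in the table and summed to between 44214 and 55803 normalized counts in each library. The sum does not show single markers, which were not all even. Of the 8, 2 were higher in both 2i libraries and 1 in both serum libraries, against 19.4% and 20.5% of all genes tested. The latter was Sall4, with 2561 and 3623 in serum against 1645 and 980 in 2i. A gene was tested with limma, on log2(normalized count + 1), when its mean in the serum or in the 2i libraries reached 50 normalized counts, and all 10 germline genes were among the 13005 genes kept. The fold changes below are 2i over serum, and p-values measure only the spread between these libraries. The added count makes fold changes of low genes smaller. Not every limma value of a low gene is too small for that reason, since that of Asz1 was above those of the count tests.

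Of the 10 germline genes, 7 were higher in both 2i libraries than in either serum library, against 19.4% of all genes tested. None was higher in both serum libraries, against 20.5% of all genes tested, and the remaining 3 overlapped. In these bulk libraries more cells with a transcript and more transcript per cell cannot be told apart. A fold change over 2 in favor of 2i was found for 8 of the 10, against 15.9% of all genes tested, and the median log2 fold change was 1.54, against −0.0047 for all genes. Before adjustment, a p-value under 0.05 together with a 2-fold change was found for 3 genes in favor of 2i (Dppa3, Dazl and Asz1) and for 0 in favor of serum, against 3.0% and 2.97% of all genes (the unadjusted rule below). Without serum replicate 2, and likewise without 2i replicate 2, the count was 1. After adjustment over all genes, limma called 0 of the 10, and 0.0154% of all genes as higher in 2i ESCs. An unadjusted p-value under 0.05 was given to 4 of the 10 by DESeq2 and to 2 by edgeR, both on whole reads. The share of all genes under that limit was not counted for these tests, so whether these counts are high cannot be said. DESeq2 called 1 of the 10 after adjustment (Dppa3), against 1.37% of all genes, and edgeR 0. Adjusted p-values of 0.753 recur below because the adjustment assigns 1 value to many genes.

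**Figure D2:**
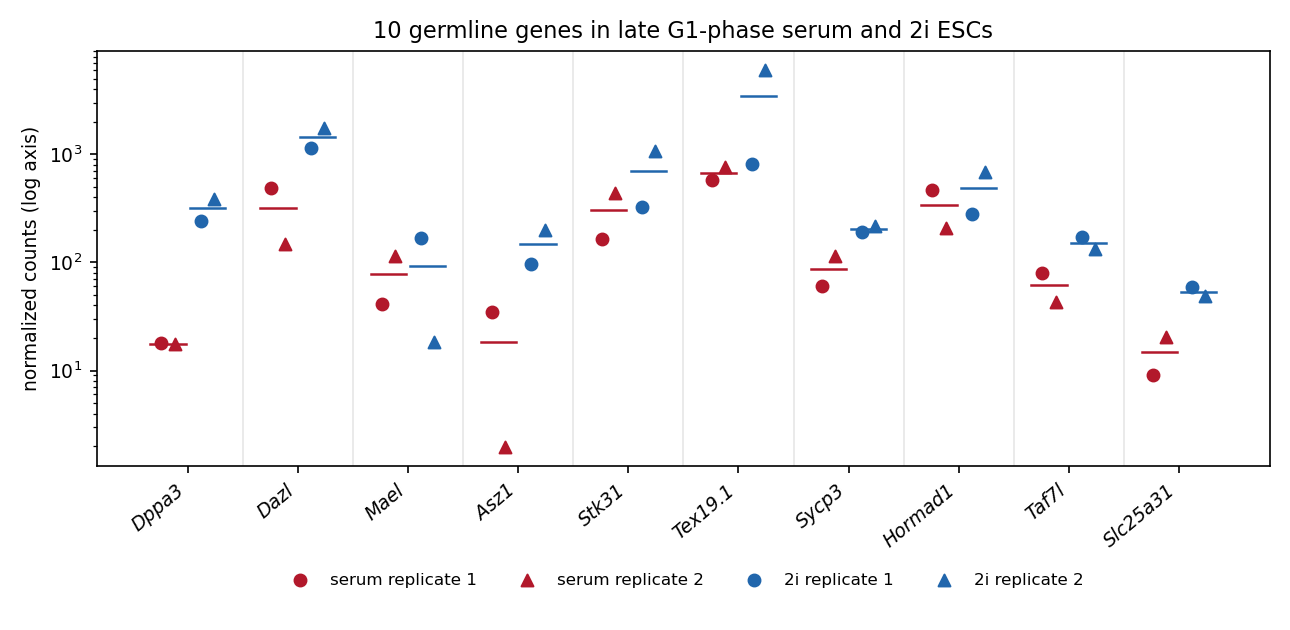
Normalized counts (log axis) of the 10 germline genes in the 4 libraries, with circles for replicate 1, triangles for replicate 2 and a line at the mean of each group (red, serum; blue, 2i). For Dppa3 the serum values of 18 and 17.5 lie far below the 2i values of 244 and 391, whereas the values of Mael, Stk31 and Hormad1 overlap.

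Dppa3 (also called Stella or PGC7) had the largest log2 fold change of the 10. It encodes a protein of the oocyte and early embryo that is known to protect DNA from loss of methylation in the zygote and to bind Uhrf1, a cofactor of maintenance methylation. The gene (ENSMUSG00000046323, mm9 chr6:122576428-122580290, plus strand) had 18 and 17.5 normalized counts in serum replicates 1 and 2 against 244 and 391 in 2i replicates 1 and 2. The serum libraries were nearly equal, and the lower 2i library was 13.5-fold above the higher serum library. The log2 fold change was 4.05 (SE 0.74; limma, adjusted p = 0.753), which ranked 18 by p-value among the 13005 genes. DESeq2 gave a log2 fold change of 4.18 with an adjusted p-value of 5.61e-07, while edgeR gave an adjusted p-value of 0.692. With the replicate number as a block in limma the adjusted p-value was 0.00941. Leaving out each library in turn gave log2 fold changes between 3.71 and 4.39.

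Reads of Dppa3 cannot all be placed with certainty. Of its 849 possible transcript words of 43 bases, the read length, 27.6% lay at several places of the mm9 genome, up to 5. Most of these were also found at chrX:35039927-35040620, over the pseudogenes Rhox3g-ps and Gm6269, neither of which was analysed here. Among the nearest genes in the table, Gdf3, a growth factor gene of the pluripotent cell, lay 16323 bp away and had 1056 and 925 normalized counts in serum against 627 and 1507 in 2i, with overlapping groups. On the other side, 65700 bp away, the pseudogene Gm10420 had 32 and 44.7 in serum against 127 and 78.6 in 2i, which is higher in both 2i libraries (limma log2 fold change 1.38 with SE 0.83, adjusted p = 0.753).

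The 3 tested genes most like Dppa3 over the 4 libraries, by Euclidean distance of log2 values centered on their mean, were Copz2, Nptx1 and Tdrd9. Copz2 (distance 0.199) had 5 and 3.89 normalized counts in serum against 67.5 and 105 in 2i, and Nptx1 (distance 0.483) had 3 and 3.89 in serum against 65.4 and 69.8 in 2i. Tdrd9 (distance 0.515), an RNA helicase of the piRNA pathway, had 10 and 7.78 in serum against 85.1 and 171 in 2i. With 4 libraries this likeness is only a description.

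Dazl, an RNA-binding protein that controls translation in germ cells, was higher in both 2i libraries. It (ENSMUSG00000010592, chr17:50418719-50432924, minus strand) had 487 and 147 normalized counts in the serum replicates against 1148 and 1773 in the 2i replicates. The serum libraries differed 3.32-fold from each other, and the lower 2i library was 2.36-fold above the higher serum library. The log2 fold change was 2.41 (SE 0.66; limma, adjusted p = 0.753). DESeq2 gave an adjusted p-value of 0.0939, and limma with the replicate block gave 0.0215. Without serum replicate 2 the log2 fold change was 1.55. Both neighbors of Dazl in the table were likewise higher in both 2i libraries, although neither passed the test. Rftn1, 88720 bp away, had 43 and 68.0 in serum against 109 and 373 in 2i (limma log2 fold change 1.88 with SE 0.81, adjusted p = 0.753), and Plcl2, 215948 bp away, had 59.0 and 36.9 in serum against 109 and 153 in 2i (limma log2 fold change 1.45 with SE 0.74, adjusted p = 0.753).

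Among the germline genes, 4 act in the silencing of transposons or are linked to it. Piwi-interacting RNAs (piRNAs) are small RNAs that guide this silencing in germ cells. Asz1 (Gasz), a scaffold protein of the mitochondria-linked granules where piRNAs are made, had the largest log2 fold change of the 4. It (ENSMUSG00000010796, chr6:18000964-18059061, minus strand) had 35.0 and 1.94 normalized counts in serum against 97.6 and 199 in 2i. Both 2i libraries were above both serum libraries, but the low serum value stands for 2 reads (95% Poisson interval 0.242 to 7.22, for counting error only). The log2 fold change was 3.77 (SE 1.5; limma, adjusted p = 0.753). Leaving out serum replicate 2 gave 1.96, and leaving out serum replicate 1 gave 5.58. Cttnbp2, the nearest gene in the table to the right at 257417 bp, had 70.0 and 50.5 in serum against 143 and 269 in 2i (limma log2 fold change 1.70 with SE 0.67, adjusted p = 0.753), and St7 to the left overlapped between the groups.

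Tex19.1, a mammal-specific protein needed for transposon control and meiosis in the male germline, had the highest mean level per kilobase of exon among the 10 in both conditions. It (ENSMUSG00000039329, chr11:121007457-121009633, plus strand) had 584 and 773 normalized counts in serum against 817 and 6098 in 2i. The groups did not overlap, yet 2i replicate 1 was only 1.06-fold above serum replicate 2, while 2i replicate 2 was 7.46-fold above 2i replicate 1. The log2 fold change of 1.73 (SE 0.92; limma, adjusted p = 0.753) dropped to 0.28 when 2i replicate 2 was left out and was 3.18 when 2i replicate 1 was. Tex19.2, which lies 27466 bp from it, had 5 and 4.86 in serum against 50.9 and 325 in 2i (limma log2 fold change 4.45 with SE 1.52, adjusted p = 0.753). In both genes 2i replicate 2 was the highest library. Of the 1870 words of Tex19.1, 71 are shared with Tex19.2, so that 96.2% lay in no other coding transcript.

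Mael and Stk31 overlapped between the conditions. Mael, a protein of the nuage needed for transposon silencing (ENSMUSG00000040629, chr1:168131516-168168875, minus strand), had 41 and 115 in serum against 169 and 18.4 in 2i. Its highest and its lowest value were both in 2i, with a 9.18-fold difference between those replicates, and the log2 fold change of −0.28 (SE 1.25; limma, adjusted p = 0.969) was 0.34 with edgeR, 0.32 with DESeq2, 0.45 without serum replicate 2 and 1.29 without 2i replicate 2. Stk31, a protein with a Tudor domain and a kinase-like domain (ENSMUSG00000023403, chr6:49345603-49419500, plus strand), had 164 and 442 in serum against 326 and 1084 in 2i. In each condition replicate 2 was the higher library, and the log2 fold change was 1.14 (SE 0.76; limma, adjusted p = 0.759). Leaving out serum replicate 1 or 2i replicate 2 gave 0.43 and 0.27, and leaving out serum replicate 2 or 2i replicate 1 gave 1.85 and 2.00.

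Sycp3 and Hormad1 build the axis of meiotic chromosomes, and they differed in pattern. Sycp3, a structural protein of the synaptonemal complex (ENSMUSG00000020059, chr10:87922314-87935981, plus strand), had 60.0 and 115 normalized counts in serum against 191 and 220 in 2i. The groups did not overlap, the 2i libraries were close to each other, and the log2 fold change was 1.29 (SE 0.62; limma, adjusted p = 0.753). Sycp3 shares 660 exonic bases with Chpt1 on the other strand, and whether the counting used strand is not given in the sources used here, so reads over these bases cannot be assigned with certainty. Chpt1 had 672 and 1364 in serum against 32295 and 981 in 2i, so 2i replicate 1 was far above the other libraries. The part of Chpt1 reads in the Sycp3 values was not tested.

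Hormad1, a HORMA domain protein that oversees pairing of chromosomes (ENSMUSG00000028109, chr3:95363599-95391593, plus strand), had 469 and 207 in serum against 282 and 691 in 2i. The groups overlapped, since 2i replicate 1 lay between the serum values, and the log2 fold change was 0.50 (SE 0.65; limma, adjusted p = 0.866). Its sign turned to −0.087 without serum replicate 2 and to −0.14 without 2i replicate 2. Of its 1562 words, 27.3% lay at several places, mostly over the pseudogene Gm15529 at chr6:12807397-12808609, which was not analysed here.

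Taf7l and Slc25a31 are germline versions of general proteins, and both were higher in both 2i libraries. Taf7l, an X-linked relative of the TFIID subunit Taf7 (ENSMUSG00000009596, chrX:130994657-131011029, minus strand), had 80.0 and 42.8 in serum against 171 and 133 in 2i (limma log2 fold change 1.35 with SE 0.70, adjusted p = 0.753). Taf7 itself had 1914 and 2997 in serum against 1346 and 4592 in 2i, with overlapping groups. Slc25a31 (Ant4), the ADP/ATP carrier of sperm mitochondria (ENSMUSG00000069041, chr3:40512777-40529515, plus strand), had 9 and 20.4 in serum against 59.2 and 48.5 in 2i (limma log2 fold change 1.90 with SE 1.35, adjusted p = 0.763). The carriers of other tissues, Slc25a4 and Slc25a5, had higher values throughout. Slc25a4 had 1601 and 2217 in serum against 2559 and 4899 in 2i, and Slc25a5 had 4691 and 9487 in serum against 6869 and 10466 in 2i. Intu, only 4081 bp from Slc25a31, had 179 and 374 in serum and 260 in both 2i libraries, so its groups overlapped where those of Slc25a31 did not.

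**Figure D3:**
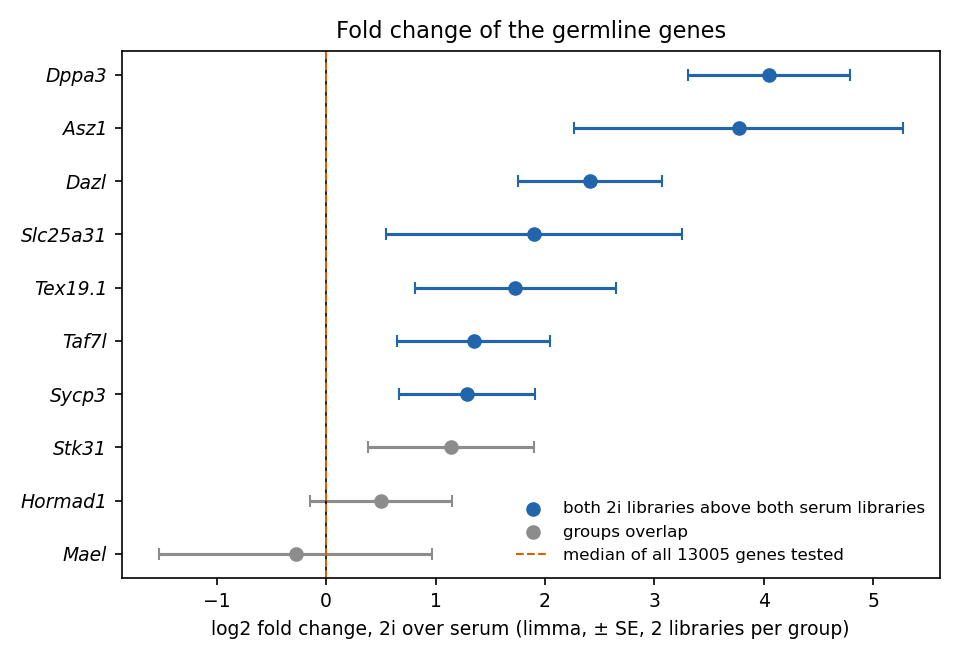
Log2 fold change of each germline gene, 2i over serum, with its SE from limma (2 libraries per group). The 7 genes in blue, from 1.29 (Sycp3) to 4.05 (Dppa3), had both 2i libraries above both serum libraries, the 3 in grey overlapped, and the dashed line marks the median of all genes tested (−0.0047).

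Levels of different genes were compared as normalized counts per kilobase of exon. In 2i the mean levels ran from Tex19.1 (1847) through Dazl (485), Dppa3 (356), Hormad1 (281), Stk31 (218), Sycp3 (163), Taf7l (67.7), Mael (60.7) and Asz1 (52.4) to Slc25a31 (33.1). Between neighbors in this order the values of the 2 libraries overlapped, except between Sycp3 and Taf7l. In serum Tex19.1 (362) was again first, without overlap with Hormad1 (196), and was followed by Dazl (105), Stk31 (93.7), Sycp3 (69.1), Mael (50.4), Taf7l (27.4) and Dppa3 (19.9). Slc25a31 (9.05) and Asz1 (6.53) came last, below Dppa3 without overlap. The place of Dppa3 thus differed most between the orders, the third by level in 2i and the eighth in serum.

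Replicates of 2i were not alike for these genes. In 7 of the 10, 2i replicate 2 was above 2i replicate 1, with a median log2 difference of 0.65 against 0.031 for all genes, whereas serum replicate 2 was above serum replicate 1 in 5 of the 10, with a median of 0.18 against 0.045. Each 2i library nevertheless exceeded each serum library in the median. The median log2 difference of 2i replicate 1 over serum replicate 1 was 1.34, and that of 2i replicate 2 over serum replicate 2 was 1.67. The crossed pairs, which share these libraries, gave 1.11 for 2i replicate 1 over serum replicate 2 and 2.08 for 2i replicate 2 over serum replicate 1.

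Other genes of the germline did not all follow the same pattern. Of 21 listed genes of the piRNA pathway, 18 were in the table and 15 were tested. Both 2i libraries were higher in 5 and both serum libraries in 1, against 19.4% and 20.5% of all genes tested, with a median log2 fold change of 0.26. A further count took the 108 tested genes of all the lists described here. It left out the 10 germline genes and the markers of pluripotent, germ, endoderm and fibroblast cells. After adjustment limma and edgeR called 0 of the 108, and DESeq2 called 9 (Rec8, Tex19.2, Fkbp6, Tex13, Lin28a, Tdrd9, Xlr5a, Xlr4b and Xlr3b). Of these 9, Lin28a was higher in serum ESCs and the others in 2i ESCs. With a 2-fold change also required, DESeq2 called 178 genes higher in 2i ESCs and 73 higher in serum ESCs among all 13005. An unadjusted p-value under 0.05 was given to 19 of the 108 by limma, and the share of all genes under that limit alone was not counted. Of the 15 piRNA genes, 3 were past the unadjusted rule, all higher in 2i ESCs. Fkbp6, a co-chaperone of piRNA loading, had 150 and 89.4 in serum against 447 and 1808 in 2i (limma log2 fold change 2.95 with SE 0.75, adjusted p = 0.753). Gpat2, a mitochondrial protein linked to piRNA formation, had 217 and 53.5 in serum against 584 and 1066 in 2i (limma log2 fold change 2.86 with SE 0.76, adjusted p = 0.753). The other was Tdrd9, with a log2 fold change of 3.63 (SE 1.18; limma, adjusted p = 0.753).

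Of 29 genes of the meiotic axis and of recombination, 21 were in the table and 18 were tested. Groups were apart with 2i higher in 4 and with serum higher in 4, against 19.4% and 20.5% of all genes tested. The median log2 fold change was −0.076, and 2 were past the unadjusted rule, both higher in 2i ESCs. Rec8, the meiotic cohesin subunit, had 266 and 175 in serum against 683 and 746 in 2i (limma log2 fold change 1.72 with SE 0.47, adjusted p = 0.753). Rec114, needed for the breaks that start recombination, had 181 and 16.5 in serum against 229 and 849 in 2i (limma log2 fold change 2.97 with SE 1.2, adjusted p = 0.753). Among 21 genes of germ cell specification and RNA regulation, 18 were in the table and 17 were tested, 4 lay higher in both 2i libraries and 4 in both serum libraries, and the median was −0.043. Past the unadjusted rule, 1 was higher in 2i ESCs and 2 in serum ESCs. Ifitm3, an interferon-induced membrane protein known from early germ cells, had 219 and 119 in serum against 474 and 563 in 2i, whereas Lin28a, an inhibitor of let-7 maturation, had 2656 and 5038 in serum against 743 and 428 in 2i. Its relative Lin28b had 388 and 1111 in serum against 274 and 122 in 2i.

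Of the lists of germline and chromatin genes, the one whose median lay farthest from that of all genes held 26 mostly X-linked genes of the testis and other genes repressed by methylation, of which 18 were in the table and 16 were tested. Of these, 12 were higher in both 2i libraries and 0 in both serum libraries, against 19.4% and 20.5% of all genes tested. The median log2 fold change was 2.34, and 6 were past the unadjusted rule, all higher in 2i ESCs. That median was 3.29 when serum replicate 1 was left out, 2.99 when 2i replicate 1 was and 1.76 when 2i replicate 2 was. Xlr3b, of a family of X-linked lymphocyte-regulated genes, had 82.0 and 29.2 in serum against 378 and 1706 in 2i, and Xlr4b had 24.0 and 24.3 in serum against 85.1 and 966 in 2i. Xlr5a had 1 and 17.5 in serum against 50.9 and 739 in 2i, where the first value is a single read. Ldhc, the lactate dehydrogenase of sperm, had 20.0 and 3.89 in serum against 60.2 and 242 in 2i. In 13 of the 16 genes 2i replicate 2 was above 2i replicate 1, with a median log2 difference of 1.79. The Xlr copies are similar to each other, so the division of reads between them is uncertain.

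**Figure D4:**
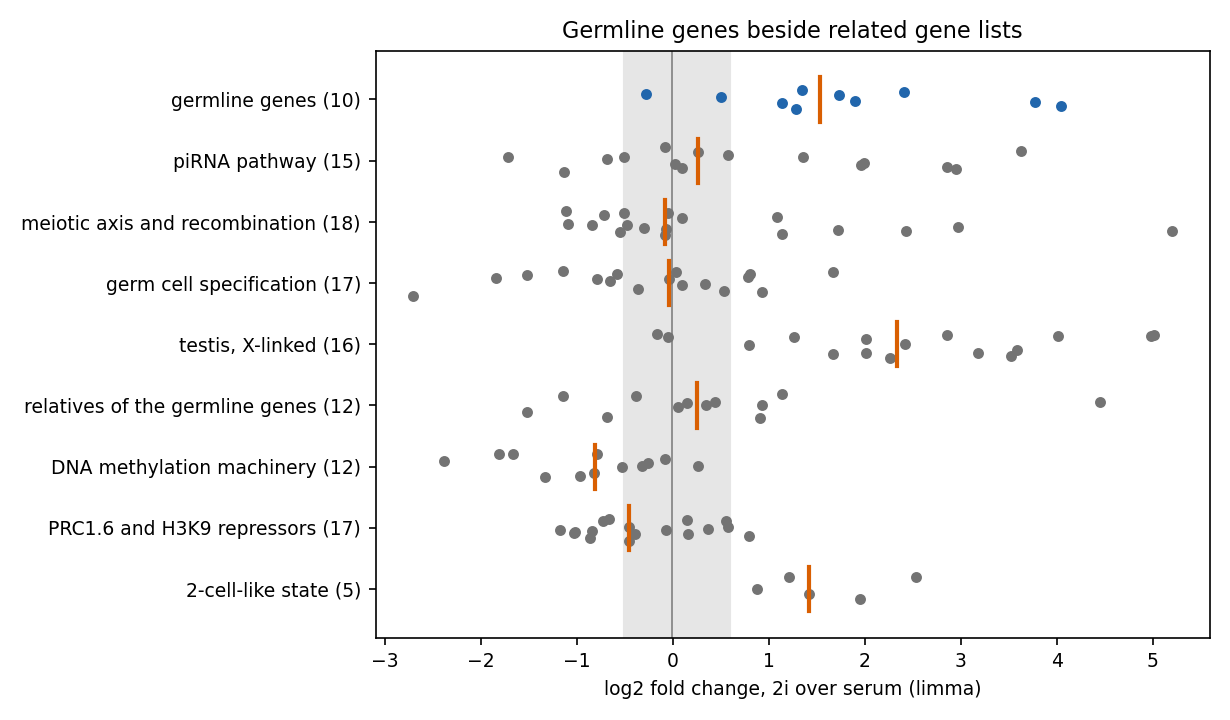
Log2 fold change, 2i over serum, of each tested gene (points) of the germline genes (blue) and of related gene lists (grey, number tested in brackets), with orange lines at the medians. The shaded band is the interquartile range of all genes tested; the medians of the germline genes (1.54) and of the testis genes (2.34) lie to its right, and that of the DNA methylation machinery (−0.80) to its left.

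Relatives of the germline genes, some of them in name only, were listed separately. Among them were Taf7, the carriers Slc25a4 and Slc25a5, and Dppa2, Dppa4 and Dppa5a. Of 16, 13 were in the table and 12 were tested. Of the 12, 4 were higher in both 2i libraries and 4 in both serum libraries, against 19.4% and 20.5% of all genes tested. The median log2 fold change was 0.25, and Tex19.2 was the 1 past the unadjusted rule. Leaving out serum replicate 1 gave a median of −0.076, and leaving out 2i replicate 2 gave −0.0063. Dppa2 and Dppa4, a pair of chromatin proteins of pluripotent cells, were higher in both serum libraries, unlike Dppa3, to which they are related in name and not in sequence. Dppa2 had 717 and 1410 in serum against 191 and 637 in 2i, and Dppa4 had 1072 and 1942 in serum against 480 and 889 in 2i. Dppa5a had 7699 and 15182 in serum against 16846 and 25318 in 2i. None of these 3 passed the unadjusted rule. Hormad2, the relative of Hormad1, had 148 and 63.2 in serum against 165 and 280 in 2i.

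Genes that write, keep or remove DNA methylation had values mostly higher in serum ESCs. All 12 listed genes were tested, and 11 had a log2 fold change in favor of serum. Of the 12, 6 were higher in both serum libraries and 0 in both 2i libraries, against 20.5% and 19.4% of all genes tested. The median log2 fold change was −0.80. It ranged from −1.19 without serum replicate 1 to −0.55 over the fits with a library left out. Past the unadjusted rule were 3, all higher in serum ESCs. Dnmt3b, a methyltransferase that sets new methylation, had 740 and 1957 in serum against 244 and 483 in 2i (limma log2 fold change −1.81 with SE 0.64, adjusted p = 0.753). Dnmt3a, its partner in this role, had 1226 and 1858 in serum against 800 and 285 in 2i (limma log2 fold change −1.66 with SE 0.61, adjusted p = 0.753). Tdg, a glycosylase that removes oxidized methylcytosine, had 880 and 1354 in serum against 540 and 349 in 2i (limma log2 fold change −1.33 with SE 0.48, adjusted p = 0.753).

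The remaining genes of this list were not past the unadjusted rule. Dnmt3l, the cofactor without catalytic activity, had 306 and 1318 in serum against 32.2 and 451 in 2i, and 2i replicate 2 lay above serum replicate 1. Dnmt1, the maintenance methyltransferase, had 5104 and 4492 in serum against 3908 and 2805 in 2i, with no overlap. Its cofactor Uhrf1 had 8838 and 7551 in serum against 4794 and 8901 in 2i, so the groups overlapped. Among the dioxygenases that oxidize methylcytosine, Tet1 had 8958 and 15494 in serum against 11296 and 3181 in 2i, Tet2 had 4337 and 6304 in serum against 2263 and 4062 in 2i, and Tet3 had 89.0 and 151 in serum against 140 and 138 in 2i. Only Tet2 of these 3 was higher in both serum libraries. The imprint regulators Zfp57 and Trim28 overlapped between the groups.

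**Figure D5:**
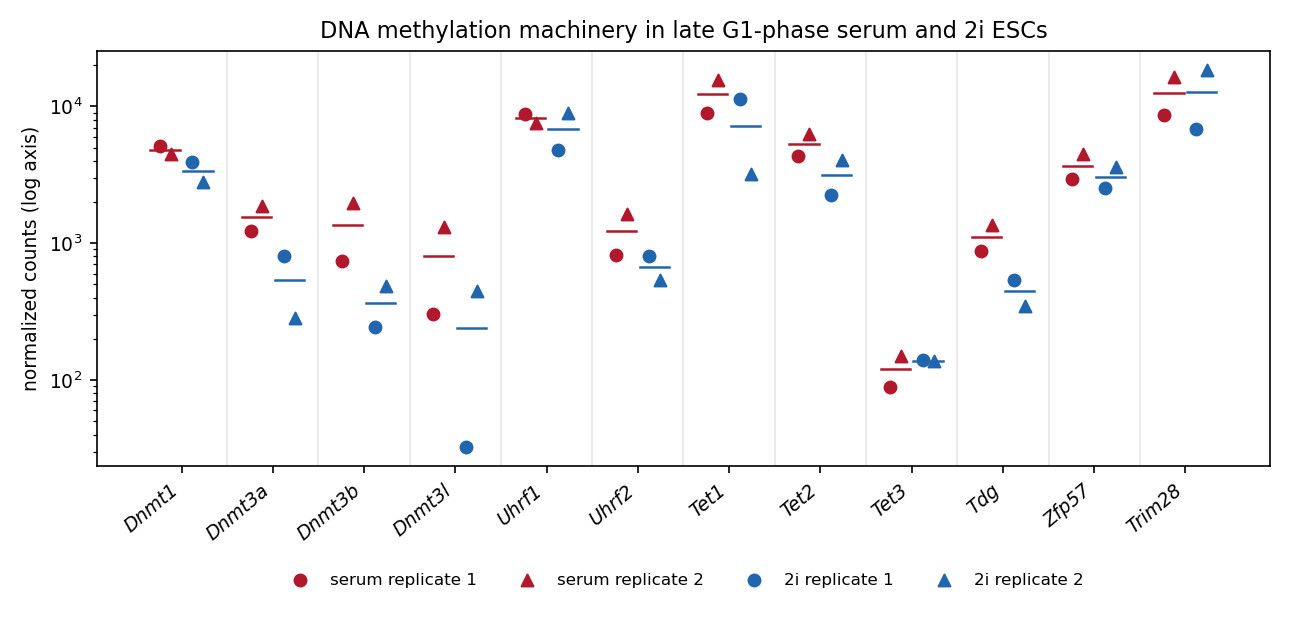
Normalized counts (log axis) of 12 genes of the DNA methylation machinery in the 4 libraries, with circles for replicate 1, triangles for replicate 2 and a line at the mean of each group (red, serum; blue, 2i). Dnmt3a, Dnmt3b and Tdg lie higher in both serum libraries, whereas Uhrf1, Tet1, Tet3, Zfp57 and Trim28 overlap.

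Subunits of the repressor complex PRC1.6 and enzymes and readers of the repressive H3K9 methylation were the last list of the germline promoters. Of 17 genes, all tested, 2 were higher in both 2i libraries and 8 in both serum libraries, against 19.4% and 20.5% of all genes tested. The median log2 fold change was −0.45, and 0 were past the unadjusted rule in either direction. The list includes Max, Mga and E2f6.

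Markers of other cells were also examined. The 2-cell-like state is a rare state of ESCs that resembles the embryo after its first division. Of 19 genes of this state, 7 were in the table and 5 were tested. All 5 were higher in both 2i libraries, against 19.4% of all genes tested (median log2 fold change of the 5, 1.42). The 7 summed to 127 and 261 normalized counts in serum against 910 and 448 in 2i, with 2i replicate 1 the highest, whereas 2i replicate 2 was the higher 2i library in 7 of the 10 germline genes. Gm5662, the 1 gene past the unadjusted rule, had 20.0 and 87.5 in serum against 315 and 196 in 2i. The defining genes Tcstv1, Tcstv3 and Zfp352 were not analysed here. Of 6 markers of primordial germ cells 5 were in the table, and they summed to 2843 and 2374 in serum against 4358 and 1826 in 2i. Kit gave the largest part of this sum in each library, with 1754 and 1450 in serum against 2031 and 1181 in 2i. Of the 5 markers, 1 was higher in both 2i libraries and 0 in both serum libraries, against 19.4% and 20.5% of all genes tested. Among markers of primitive endoderm 4 were in the table, with sums of 72.0 and 109 in serum against 332 and 256 in 2i (Sox7, Foxa2 and Dab2 were not analysed here). Gata4 among them had 13.0 and 42.8 in serum against 152 and 169 in 2i. Of 8 fibroblast markers 3 were in the table, with sums of 339 and 345 in serum against 447 and 203 in 2i. The part of the 2-cell-like and endoderm markers in the germline differences was not tested.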

How the data were processed

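RNA was sequenced from 4 libraries, 2 of serum ESCs and 2 of 2i ESCs. The authors aligned the reads to mm9 with Bowtie, estimated expression with MMSeq, which divides reads that fit several transcripts, and scaled the gene counts with DESeq2 (versions of these tools are not given in the sources used here). The deposited values are a signal, the count of a gene divided by the size factor of its library, and whole reads were recovered for 100% of the values, since each library has 1 step of which all values are multiples. Reads summed over the genes of the deposited table were between 18939401 and 26570098 per library, and the smallest total of a gene was 51 reads. Names and positions came from GENCODE vM1 (mm9), which held 14462 of the 14533 genes. For 5 listed genes an older symbol was matched through RefSeq synonyms, and 3 of these 5 were in the table.

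Samples were grouped by their titles. Genes whose mean in serum or in 2i reached 50 normalized counts were tested with limma 3.58.1 in R 4.3.3, using log2(normalized count + 1) and a variance trend, adjusted by Benjamini-Hochberg over 13005 genes. A gene passed when its adjusted p-value was under 0.05 and its fold change over 2, and the unadjusted rule uses the p-value before adjustment. With 2 libraries per group the smallest two-sided p-value of an exact permutation test is 0.333, so none was used. edgeR 4.0.16 and DESeq2 1.42.0 on whole reads, other pseudocounts, filters and scalings, a replicate block and leaving out each library were alternatives.

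The genes and the gene lists were chosen with earlier results of these data known, so the counts over them are descriptions. Named beside the 10 genes are up to 4 genes of each list with the largest fold change past the unadjusted rule and without overlap. Any gene of the lists of methylation machinery and of relatives could also be named. So could the nearest gene in the table on each side, and the 3 genes most like Dppa3. Chpt1 was named for its overlap with Sycp3, the pseudogenes at repeated words for those words, and Max, Mga and E2f6 for the letters they bind. Kit was named for its part in the sum of the germ cell markers.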

Additional observations from a re-analysis of the deposited data

How the results depend on the processing

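Of 154 log2 fold changes of the germline genes under 16 alternatives, 145 kept their direction and, as in the main fit, did not pass after adjustment. This count does not describe their size, since some of them moved across the 2-fold line, as the ranges below show. Direction was kept throughout in 8 of the 10 genes. Mael turned to 0.34 with edgeR and 0.32 with DESeq2, and to 0.45 without serum replicate 2 and 1.29 without 2i replicate 2, with a lowest value of −1.84. Hormad1 ranged from −0.14 without 2i replicate 2, through −0.087 without serum replicate 2, to 1.14. Over the fits with a library left out, Dppa3 ranged from 3.71 to 4.39, Dazl from 1.55 to 3.27, Asz1 from 1.96 to 5.58, Tex19.1 from 0.28 to 3.18, Slc25a31 from 1.35 to 2.45, Taf7l from 0.91 to 1.80, Sycp3 from 0.83 to 1.76 and Stk31 from 0.27 to 2.00. The count of germline genes past the unadjusted rule was 1 with a mean of at least 200, which left 4 of them, and ranged from 1 to 3 with a library left out. That count was 4 with DESeq2, without the trend and with the replicate block, and 2 with edgeR and with quantile normalization. The shares of all genes past the rule were not counted for these settings. The median of the 10 genes ranged from 1.41 to 1.88 with a library left out, and medians of the list of DNA methylation machinery from −1.19 to −0.55. Medians of the piRNA list were 0.58 without a filter and 0.063 with a mean of at least 200, and that of the meiotic list was −0.24 after quantile normalization. Over all genes, those higher in 2i ESCs numbered 4 with a mean of at least 200, 1 without the trend, 0 with protein-coding genes alone, 0 with edgeR and 0 with each library left out. DESeq2 called 178 genes higher in 2i ESCs and 73 higher in serum ESCs, and Dppa3 passed with 4.18. The median of all genes was 0.12 with upper quartile scaling and −0.12 with a mean of at least 200. For these changes the cause was not tested.

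Replicate numbers were not taken as pairs, since there are only 2 and the labels tie them to nothing shared. Deviations of same-numbered libraries correlated across genes with r = 0.480. The replicate block gave 44 genes in favor of serum and 159 in favor of 2i, and among the germline genes Dppa3 (4.05, adjusted p = 0.00941 with limma) and Dazl (2.41, adjusted p = 0.0215 with limma) passed.

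Over all genes tested, serum replicates differed by a median of 0.527 and 2i replicates by 0.760 in absolute log2 terms, and the biological coefficient of variation in edgeR was 0.668. Values of a few reads, as for Asz1 in serum replicate 2, are set by counting error as well.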

Other observations

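Around the germline genes, 20 neighboring genes in the table were examined, of which 18 were tested. Of these, 7 were higher in both 2i libraries and 0 in both serum libraries, against 19.4% and 20.5% of all genes tested, and the median log2 fold change, 2i over serum, was 0.62. Past the unadjusted rule were Tex19.2 and Cttnbp2, both named above. Spic, which codes for a transcription factor of the Ets family and lies 201536 bp from Sycp3, had 190 and 75.8 normalized counts in serum replicates 1 and 2 against 173 and 1455 in 2i replicates 1 and 2, and Gpa33, 34875 bp from Mael, had 835 and 282 in serum against 798 and 1229 in 2i. Both overlapped between the groups. Timm8a1, 60766 bp from Taf7l, had 1033 and 2141 in serum against 491 and 1534 in 2i.

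Single libraries held extreme values of some germline genes outside the 10, which were chosen after their values were seen. Prdm9, the methyltransferase that places recombination sites in meiosis, had 92.0 and 7.78 in serum against 51712 and 20.4 in 2i, so that 2i replicate 1 stood far above the other 3 libraries. Stra8, a gene that starts meiosis, had 180 and 166 in serum against 853 and 159 in 2i. Among the 10 germline genes, 2i replicate 1 was likewise the higher 2i library for Mael (169 against 18.4), Taf7l and Slc25a31. For the other 7, among them Sycp3 and Hormad1, it was 2i replicate 2.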
